A study of Mus musculus with 8 samples.

Results

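Collagen genes were examined in MIN6, a line of β-cells from a mouse insulinoma, after it had been made to express the transcription factor Klf4. The collagens were taken as every row of the count table whose symbol has the form of a collagen chain gene (Col, a type number, a, a chain number), which gave 44 of 55536 rows. The question the series poses is how Klf4, a zinc-finger factor of differentiating epithelia that binds GC-rich and CACCC-like DNA, alters the transcriptome of a β-cell line. The control group was given pcDNA 3 without an insert and the other group pGloMyc-Klf4, in each case with Lipofectamine 3000 for 48 h and in cells of WT genotype. Each group had 4 biological replicates, per the design text, with numbers 1 and 2 labelled batch 1, and numbers 3 and 4 labelled batch 2. The plasmids differ in name beyond the insert, so the backbone and Klf4 cannot be told apart. The extraction text speaks of islets, while every sample is named as the MIN6 line. The transfection was transient, and the sources used here do not give the share of cells that took up the plasmid, so more collagen RNA per cell and more cells that make it cannot be told apart.

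Collagens are matrix proteins whose chains, built of glycine-rich repeats, wind around each other into a rope-like helix before they are secreted. Fibril-forming collagens (I, II, III, V, XI, XXIV and XXVII) assemble into fibres, collagen IV forms the sheet of the basement membrane, collagen VI forms beaded filaments, and others sit on fibrils, span the cell membrane or anchor epithelia to the tissue beneath. In mouse islets the basement membrane that surrounds β-cells is laid down largely by endothelial cells, and fibrillar collagen is typically a product of fibroblasts and stellate cells.

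Total counts per library lay between 45417853 and 52731176. Klf4 RNA was at 2014, 2060, 1929 and 1743 counts in control replicates 1 to 4 and at 251826, 205171, 257862 and 308667 counts in Klf4-transfected replicates 1 to 4, an edgeR log2 fold change of 6.97 (SE 0.07, adjusted p = 1.21e-25 in the quasi-likelihood test). All libraries thus matched their labels, although reads from the plasmid and from the cell's own gene were counted together. The β-cell markers (Ins1, Ins2, Iapp, Pdx1, Mafa, Slc2a2, G6pc2 and Nkx6-1) summed to 25117.5 to 31865.3 CPM (counts divided by the TMM-scaled library total) in control libraries and to 23465.5 to 32147.7 CPM in Klf4-transfected libraries. Of the 8, 4 (Iapp, Pdx1, Mafa and G6pc2) were lower after Klf4, where 15.5% of all tested genes were lower. Their log2 fold changes were small, at -0.07 to -0.18. Within batch 1 they lay between -0.06 and -0.04, and within batch 2 between -0.30 and -0.07.

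Of the 44 collagen genes, 17 rose with the Klf4 plasmid and none fell, although 13 rose and 5 fell when the model corrected for GC content and exon length. With all 8 libraries and without that correction 0 collagens were lower in edgeR, also at an unadjusted p under 0.05, and 0 in DESeq2 and limma-voom, while Col6a2 was called lower when control replicate 2 or Klf4-transfected replicate 2 was left out and in batch 2 alone. The largest rises were in Col8a1 (log2 fold change 3.63), Col5a1 (3.24), Col23a1 (3.11), Col5a3 (2.60) and Col6a1 (2.31), all of which had few counts in control cells. The collagens with the highest levels in control cells, Col16a1, Col27a1, Col6a3 and Col6a2, had log2 fold changes between -0.10 and 0.09 and did not pass the test, whereas Col11a2, also among the top 5, rose (0.50). A change was called where the p-value, adjusted over the 18266 genes tested, was under 0.05 in a model with terms for batch and plasmid.

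The filter on low counts left 35 collagens for testing, of which 30 passed it in both groups, 3 (Col6a1, Col8a1 and Col23a1) through the Klf4-transfected group, 1 (Col19a1) through the control group and 1 (Col4a5) across groups. The 17 that rose make 48.6% of the tested collagens, where 36.6% of all tested genes were called, 21.1% higher and 15.5% lower. Over all genes 3856 of 6684 calls were higher, against 4387 of 6025 with scaling factors from abundant genes and 3356 of 7981 with the GC and length correction. For collagens at a log2 fold change of at least 1 the count was 10, or 28.6%, against 8.5% of all tested genes. The median log2 fold change was 0.40 over the tested collagens and -0.01 over all tested genes. In 13 of the 35 tested collagens (37.1%) the 4 libraries of one group did not overlap those of the other, against 26.1% of all tested genes, and in each of the 13 the Klf4-transfected libraries were the higher ones. Since 3 collagens entered the test only through the group in which they were high, these counts describe the tested genes and not the whole family. For those 3 a lack of overlap between the groups is no separate support for the rise.

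**Figure D1:**
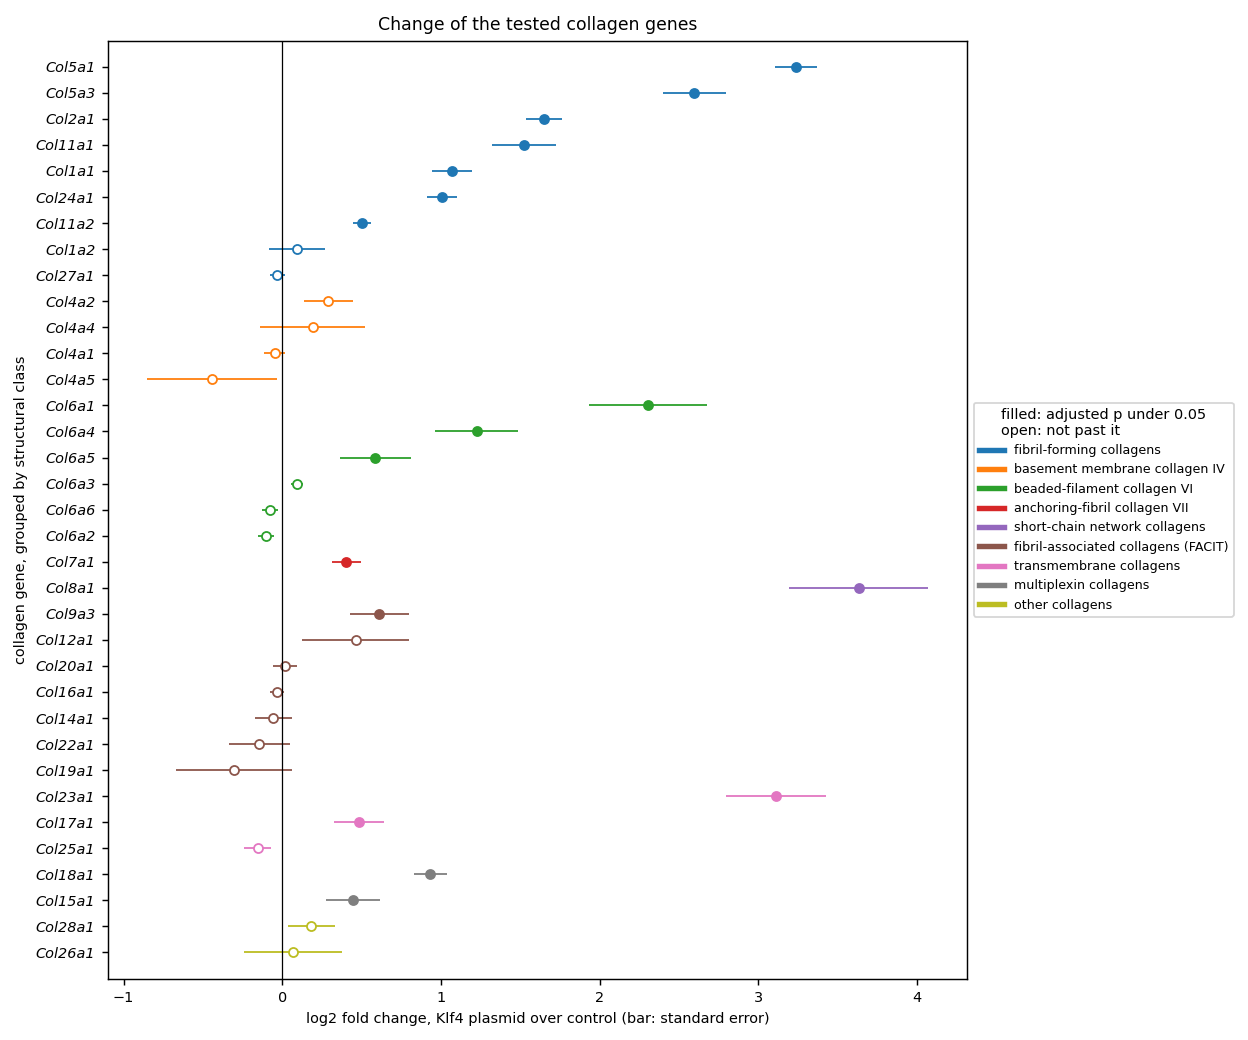
Log2 fold change of the 35 tested collagen genes (x axis, Klf4 plasmid over control, bars give the standard error), grouped by structural class; filled points have an adjusted p under 0.05. The filled points all lie to the right of 0, and the points of collagen IV are all open.

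Fibril-forming collagens held the largest number of rises: 7 of 11 members rose, where 21.1% of all tested genes were higher. Of the tested 9, 2 (Col1a2 and Col27a1) did not pass, and Col3a1 and Col5a2 were below the filter. The log2 fold changes of the tested members ran from -0.03 to 3.24 with a median of 1.07. Col5a1, a chain of collagen V, which starts fibrils and limits their width, was at 1.17, 0.986, 0.974 and 1.06 CPM in control replicates 1 to 4 and at 7.53, 7.67, 11.9 and 13.0 CPM in Klf4-transfected replicates 1 to 4. The groups were far apart, and the libraries of batch 2 were the higher ones after Klf4. The means were 1.05 ± 0.0893 and 10.03 ± 2.84 CPM (SD, n = 4), a 9.58-fold difference (edgeR gave a log2 difference of 3.24 with SE 0.13 and adjusted p = 4.16e-15), with 2.82 in batch 1 and 3.61 in batch 2. Col5a1 (ENSMUSG00000026837) lies on chromosome 2 at 27886425 to 28039514 on the plus strand of GRCm38, and 99 and 113 of its 8490 exonic bases overlap transcripts of the opposite strand.

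Col5a3, a further collagen V chain (ENSMUSG00000004098, chromosome 9, 20770050 to 20815067, minus strand), moved in the same direction from a lower level. Its values were 0.489, 0.431, 0.385 and 0.476 CPM in control libraries and 2.77, 2.23, 2.43 and 3.39 CPM after Klf4. No library of one group came near the other, and the edgeR log2 fold change was 2.60 (SE 0.20; adjusted p = 3.19e-10). The remaining chain of this collagen did not follow: Col5a2, below the filter, was counted 10, 6, 9 and 8 times in control libraries and 7, 2, 1 and 5 times after Klf4. For a gene this low the direction was not tested, and 3 counts correspond to 0.0569 to 0.0661 CPM here.

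Col2a1, the chain of cartilage collagen II (ENSMUSG00000022483, chromosome 15, 97975602 to 98004695, minus strand), was at 3.46, 3.82, 2.88 and 2.40 CPM in controls and at 10.1, 8.55, 9.85 and 10.8 CPM after Klf4. The groups did not overlap, and the means of 3.14 ± 0.627 and 9.82 ± 0.926 CPM (SD, n = 4) went with an edgeR log2 fold change of 1.65 (SE 0.11; adjusted p = 4.69e-11). Collagen XI, which forms the core of cartilage fibrils together with collagen II, had both of its own chains higher. Col11a1 (ENSMUSG00000027966, chromosome 3, 114030540 to 114220718, plus strand) went from 0.956, 1.38, 0.588 and 0.456 CPM to 2.46, 2.56, 2.02 and 2.39 CPM. Its control libraries were higher in batch 1 than in batch 2, and the edgeR log2 fold change of 1.52 (SE 0.20; adjusted p = 2.47e-06) was 1.10 within batch 1 and 2.07 within batch 2. Col11a2 (ENSMUSG00000024330, chromosome 17, 34039437 to 34066685, plus strand), far more abundant, was at 50.6, 44.5, 40.4 and 45.4 CPM in controls and at 64.8, 71.4, 53.5 and 66.3 CPM after Klf4. Every Klf4-transfected library exceeded every control, by 1.42-fold in the means (edgeR gave a log2 difference of 0.50 with SE 0.06 and adjusted p = 2.11e-07). Corrected for GC content and exon length, the log2 fold change of Col11a2 was 0.28 (edgeR adjusted p = 2.93e-05).

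Col1a1, the major chain of collagen I of bone, skin and tendon (ENSMUSG00000001506, chromosome 11, 94936224 to 94953042, plus strand), was low in these cells, at 2.25, 2.44, 1.52 and 1.43 CPM in controls and at 4.43, 4.33, 3.40 and 3.74 CPM after Klf4. The groups did not overlap, and within each group batch 1 was the higher (edgeR gave a log2 difference of 1.07 with SE 0.13 and adjusted p = 3.51e-07). Col1a2, which supplies the other chain of collagen I, was at 1.53, 1.25, 1.42 and 1.14 CPM in controls and at 1.59, 1.39, 1.24 and 1.48 CPM after Klf4. These values overlapped, with an edgeR log2 fold change of 0.09 (SE 0.18; adjusted p = 0.734). Col24a1, a minor fibrillar collagen (ENSMUSG00000028197, chromosome 3, 145292472 to 145552011, plus strand), was at 7.41, 7.25, 5.07 and 6.17 CPM in controls and at 11.9, 13.1, 12.2 and 14.6 CPM after Klf4. All of its Klf4-transfected libraries were above the controls (edgeR gave a log2 difference of 1.01 with SE 0.09 and adjusted p = 1.03e-08). Col27a1 (ENSMUSG00000045672, chromosome 4, 63214004 to 63334991, plus strand), the fibrillar collagen with the most counts, was at 99.3, 91.2, 71.2 and 74.3 CPM in controls and at 97.1, 104, 61.4 and 69.9 CPM after Klf4. Its libraries separated by batch and not by plasmid, and the edgeR log2 fold change was -0.03 (SE 0.05; adjusted p = 0.652). Col3a1, the partner of collagen I in many soft tissues, had at most 3 counts in any library.

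**Figure D2:**
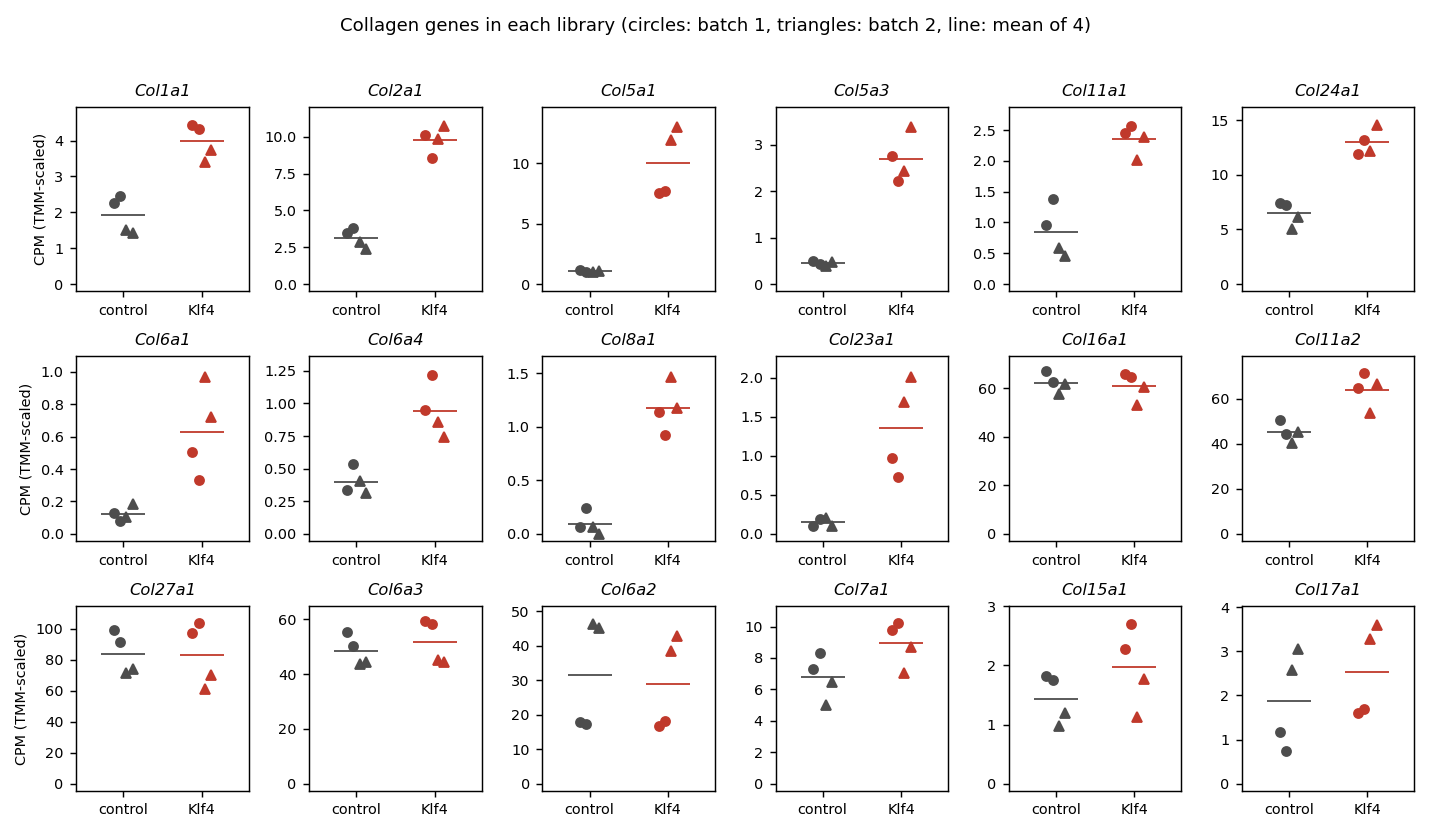
CPM in each library (y axis, one panel per gene, axes starting just below 0) for the collagen genes given library by library, control and Klf4 plasmid side by side, with batch shown by the marker. In Col5a1, Col5a3 and Col23a1 the groups are far apart, whereas in Col6a2 and Col27a1 the batches separate and the groups do not.

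The DNA before the start of 4 of the 5 collagens with the largest rises is shown beside that of 3 of the 4 abundant collagens that did not pass the test, because Klf4 is known to bind GC-rich CACCC-like elements. RefSeq windows (GRCm38.p6) of the 250 bases before the annotated start were found for 35 of the 44 collagens, as 38 windows. Capitals mark matches to CCNCNCCC or to its reverse complement, GGGNGNGG, overlapping matches run together but are counted one by one, and each sequence is printed 5′ to 3′ on the strand of its gene.
Col5a1, chr2:27886175-27886424, plus strand: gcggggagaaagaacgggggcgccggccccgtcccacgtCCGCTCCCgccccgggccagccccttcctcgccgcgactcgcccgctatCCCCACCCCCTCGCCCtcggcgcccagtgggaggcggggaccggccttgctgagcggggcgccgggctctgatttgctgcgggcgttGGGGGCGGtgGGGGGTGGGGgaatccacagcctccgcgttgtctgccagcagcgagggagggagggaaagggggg
Col5a3, chr9:20815068-20815317, minus strand: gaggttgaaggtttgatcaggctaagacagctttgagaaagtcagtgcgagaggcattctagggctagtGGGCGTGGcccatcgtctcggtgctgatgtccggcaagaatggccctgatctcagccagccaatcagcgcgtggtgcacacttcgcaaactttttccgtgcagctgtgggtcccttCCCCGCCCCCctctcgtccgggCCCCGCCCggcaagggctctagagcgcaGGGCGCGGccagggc
Col8a1, chr16:57754738-57754987, minus strand: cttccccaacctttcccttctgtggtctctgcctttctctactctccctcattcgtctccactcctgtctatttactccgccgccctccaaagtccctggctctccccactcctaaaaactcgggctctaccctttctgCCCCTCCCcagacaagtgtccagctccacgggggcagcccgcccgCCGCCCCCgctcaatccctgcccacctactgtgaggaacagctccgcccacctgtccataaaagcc
Col23a1, chr11:51289670-51289919, plus strand: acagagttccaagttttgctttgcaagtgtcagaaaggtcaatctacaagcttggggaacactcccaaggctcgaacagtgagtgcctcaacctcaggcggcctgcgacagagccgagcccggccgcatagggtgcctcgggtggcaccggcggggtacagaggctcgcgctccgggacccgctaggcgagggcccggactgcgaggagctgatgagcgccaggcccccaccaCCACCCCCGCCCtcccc
Col16a1, chr4:130047590-130047839, plus strand: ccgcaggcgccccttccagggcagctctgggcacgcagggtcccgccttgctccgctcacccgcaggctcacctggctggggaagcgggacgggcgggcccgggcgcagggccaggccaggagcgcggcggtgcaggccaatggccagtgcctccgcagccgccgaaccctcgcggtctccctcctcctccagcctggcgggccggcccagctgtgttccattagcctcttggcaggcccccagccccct
Col6a3, chr1:90843972-90844221, minus strand: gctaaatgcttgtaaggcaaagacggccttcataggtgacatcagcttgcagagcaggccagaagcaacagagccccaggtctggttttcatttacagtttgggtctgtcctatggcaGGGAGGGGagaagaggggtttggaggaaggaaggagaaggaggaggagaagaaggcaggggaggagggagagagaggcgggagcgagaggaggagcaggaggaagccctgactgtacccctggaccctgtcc
Col6a2, chr10:76623631-76623880, minus strand: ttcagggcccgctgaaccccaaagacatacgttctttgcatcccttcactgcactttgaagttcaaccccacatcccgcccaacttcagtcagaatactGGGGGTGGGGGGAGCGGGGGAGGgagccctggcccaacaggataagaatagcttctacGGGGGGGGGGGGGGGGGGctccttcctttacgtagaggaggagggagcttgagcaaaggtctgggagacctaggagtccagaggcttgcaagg

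The Col5a1 window held 7 matches, that of Col5a3 5, and those of Col8a1 and Col23a1 2 each. The window of Col16a1 held none, that of Col6a3 held 1 and that of Col6a2 held 15. Most of the matches of Col6a2 are shifts along a single run of G from base -93 to base -76 relative to the start. They are thus not separate elements. The windows of Col6a1 and Col27a1, with 1 match each, and a further one of Col6a2, with 5, reach into the annotated gene and are not shown. Among collagens that rose, windows of Col6a4, Col17a1 and Col18a1 also reach into or lie within the annotated gene. All such windows enter the shares that follow, Col18a1 with more than 1. Over all 32851 RefSeq windows of the same length, 45.9% held at least 1 match on either strand, against 27 of the 38 collagen windows (71.1%) and 12 of the 15 windows of collagens that rose (80.0%). The mean number of matches was 1.21 over all windows, 2.11 over the collagen windows and 1.8 over those of collagens that rose. The run of G in Col6a2 enters the mean over the collagen windows. The windows also differ in base composition: 76.4% of the bases of the Col5a1 window are G or C, 62.8% in Col5a3, 60.8% in Col8a1, 66.0% in Col23a1, 75.6% in Col16a1, 57.2% in Col6a3 and 59.2% in Col6a2. The shorter motif CACCC can overlap the longer one. CACCC was in 52.0% of all windows, 68.4% of collagen windows and 66.7% of the windows of collagens that rose. For TATAAA these shares were 12.4%, 13.2% and 13.3%. These matches describe letters in the windows, and no binding was measured.

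Collagen VI is built from a chain of Col6a1, one of Col6a2 and a longer one. The longer one is encoded by Col6a3 or by its relatives Col6a4, Col6a5 and Col6a6. Of these 6 genes, all tested, 3 rose, where 21.1% of all tested genes were higher. Among the 3, Col6a1 passed the filter only through the Klf4-transfected group. Col6a1 (ENSMUSG00000001119, chromosome 10, 76708792 to 76726168, minus strand) was counted 6, 4, 5 and 9 times in control libraries and 26, 15, 51 and 38 times after Klf4. The groups did not overlap in CPM, with means of 0.124 ± 0.0454 and 0.631 ± 0.276 CPM (SD, n = 4) and an edgeR log2 fold change of 2.31 (SE 0.37; adjusted p = 2.83e-05). Col6a4 (ENSMUSG00000032572, chromosome 9, 105989454 to 106096783, minus strand) was counted 16, 26, 20 and 15 times in controls and 49, 55, 45 and 39 times after Klf4. Its groups did not overlap either (edgeR gave a log2 difference of 1.23 with SE 0.26 and adjusted p = 6.94e-04), and 162 and 127 of its 8526 exonic bases lie opposite other transcripts. Col6a5, singled out after its values were seen, was at 0.489, 0.575, 0.933 and 0.849 CPM in controls and at 1.06, 1.02, 1.12 and 1.02 CPM after Klf4 (edgeR gave a log2 difference of 0.59 with SE 0.22 and adjusted p = 0.0435).

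The Col6a5 call was lost with single libraries left out: its adjusted p was 0.0682 under a replicate block in edgeR, and leaving out control replicate 1, 2 or 4 or Klf4-transfected replicate 1, 2 or 3 gave edgeR values of 0.147, 0.0974, 0.0595, 0.13, 0.0982 and 0.0675. The abundant chains did not pass. Col6a3 (ENSMUSG00000048126, chromosome 1, 90765923 to 90843971, minus strand) was at 55.4, 50.3, 43.6 and 44.4 CPM in controls and at 59.3, 58.3, 45.3 and 44.4 CPM after Klf4. Batch 1 was the higher in both groups, and the edgeR log2 fold change was 0.09 (SE 0.04; adjusted p = 0.0798). Col6a2 (ENSMUSG00000020241, chromosome 10, 76595762 to 76623630, minus strand) was at 17.8, 17.3, 46.2 and 45.1 CPM in controls and at 16.8, 18.1, 38.4 and 42.9 CPM after Klf4. The batches of Col6a2 stood apart, batch 2 being 2.60-fold higher in controls and 2.33-fold higher after Klf4, and the log2 fold change of the plasmid was -0.10 (SE 0.05, edgeR adjusted p = 0.127). Col6a2 was called lower without control replicate 2 (-0.14, edgeR adjusted p = 0.0349), without Klf4-transfected replicate 2 (-0.14, 0.0392), in batch 2 alone (-0.16, 0.0453) and with the GC and length correction (-0.25, 0.00016). Col6a3 was called higher in batch 1 alone (0.15, edgeR adjusted p = 0.0344), with factors from abundant genes (0.13, 0.0168) and with the filter at 1 CPM (0.10, 0.0466).

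Of the other network-forming classes, the only tested short-chain member, Col8a1, passed the filter only through the Klf4-transfected group. These classes are thus not compared, and the distance between the groups of Col8a1 is no separate support for its rise. Of the 4 tested collagen IV genes 0 passed the edgeR test, where 36.6% of all tested genes did, and 0 passed at an unadjusted p under 0.05. Their log2 fold changes ran from -0.44 to 0.29. Col4a1, the main basement membrane chain together with Col4a2, had -0.05 (edgeR adjusted p = 0.634), and Col4a2 had 0.29 (0.157), while the GC and length correction put Col4a1 at -0.23 (edgeR adjusted p = 0.0065). Col4a3 and Col4a6 were below the filter. Col8a1, a short-chain collagen of vessel walls and of the membrane behind the cornea (ENSMUSG00000068196, chromosome 16, 57624258 to 57754737, minus strand), was counted 3, 12, 3 and 0 times in controls and 59, 42, 77 and 62 times after Klf4. Even the highest control library lay well under the lowest Klf4-transfected one, and the means of 0.0928 ± 0.107 and 1.18 ± 0.22 CPM (SD, n = 4) went with an edgeR log2 fold change of 3.63 (SE 0.44; adjusted p = 5.23e-07). That value depended on the few control counts, being 4.77 without control replicate 2, and 2.71 in batch 1 against 5.31 in batch 2. Col8a2, its partner, was below the filter with 4, 3, 3 and 4 counts in controls and 11, 5, 12 and 9 after Klf4, and Col10a1, of hypertrophic cartilage, had at most 4 counts in any library.

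Among the transmembrane collagens, Col23a1 (ENSMUSG00000063564, chromosome 11, 51289920 to 51583918, plus strand) was counted 5, 9, 10 and 5 times in controls and 50, 33, 89 and 106 times after Klf4. The groups did not overlap, and batch 2 was the higher after Klf4, at 1.69 and 2.01 CPM against 0.968 and 0.729 CPM. As Col23a1 passed the filter only through the Klf4-transfected group, the lack of overlap is no separate support. The means were 0.149 ± 0.0519 and 1.35 ± 0.601 CPM (SD, n = 4), a 9.04-fold difference (edgeR gave a log2 difference of 3.11 with SE 0.31 and adjusted p = 3.29e-08). Col17a1, which anchors keratinocytes in the hemidesmosome (ENSMUSG00000025064, chromosome 19, 47646344 to 47692094, minus strand), was at 1.17, 0.740, 2.58 and 3.05 CPM in controls and at 1.61, 1.70, 3.27 and 3.58 CPM after Klf4. The groups overlapped across batches, batch 2 being 2.95-fold higher in controls and 2.07-fold higher after Klf4, and within each batch both Klf4-transfected libraries were above both controls. Its edgeR log2 fold change of 0.48 (SE 0.16; adjusted p = 0.0198) was 0.79 in batch 1 and 0.30 in batch 2, and edgeR's adjusted p was 0.0844, 0.0593, 0.056 and 0.0567 without control replicate 2, control replicate 3, Klf4-transfected replicate 1 and Klf4-transfected replicate 2. Col25a1 did not pass (-0.16), and Col13a1 was below the filter.

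Col7a1, the collagen of the anchoring fibrils that hold the epidermis to the dermis (ENSMUSG00000025650, chromosome 9, 108953586 to 108984875, plus strand), was at 7.31, 8.32, 5.03 and 6.48 CPM in controls and at 9.79, 10.2, 7.05 and 8.72 CPM after Klf4. The groups overlapped across batches and separated within each (edgeR gave a log2 difference of 0.40 with SE 0.09 and adjusted p = 0.00115). Corrected for GC content and exon length it had 0.20 (edgeR adjusted p = 0.0649). Both multiplexins, collagens of the basement membrane zone that release endostatin-like fragments, rose, where 21.1% of all tested genes were higher. Col18a1, given after its values were seen, was at 3.72, 2.86, 3.31 and 3.98 CPM in controls and at 5.67, 6.16, 7.38 and 7.30 CPM after Klf4, without overlap (edgeR gave a log2 difference of 0.93 with SE 0.10 and adjusted p = 1.29e-07). Col15a1 (ENSMUSG00000028339, chromosome 4, 47208161 to 47313167, plus strand) was at 1.83, 1.75, 0.974 and 1.20 CPM in controls and at 2.28, 2.69, 1.12 and 1.76 CPM after Klf4. Its groups overlapped, the edgeR log2 fold change was 0.45 (SE 0.17; adjusted p = 0.0469), and under a replicate block the edgeR adjusted p was 0.053. Leaving out control replicate 1, 2 or 3 or Klf4-transfected replicate 1, 2 or 4 gave edgeR adjusted p-values of 0.0861, 0.0947, 0.116, 0.0653, 0.148 and 0.191 for Col15a1.

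Among the fibril-associated collagens, which coat or link fibrils, 1 of the 7 tested rose, where 21.1% of all tested genes were higher. Their log2 fold changes ran from -0.30 to 0.61. The one that rose, Col9a3, was at 1.81, 1.5, 1.48 and 1.26 CPM in controls and at 1.57, 3.05, 2.09 and 2.54 CPM after Klf4, with Klf4-transfected replicate 1 inside the control range. Its edgeR log2 fold change was 0.61 (SE 0.19; adjusted p = 0.0128), edgeR gave 0.101 without Klf4-transfected replicate 2 and 0.0627 without Klf4-transfected replicate 4, and 234 of its 3853 exonic bases overlap Tcfl5 on the opposite strand. Col16a1, the collagen with the highest level per length of exon in control cells (ENSMUSG00000040690, chromosome 4, 130047840 to 130099283, plus strand), was at 67.0, 62.6, 57.7 and 61.8 CPM in controls and at 65.6, 64.7, 53.1 and 60.3 CPM after Klf4. The GC and length correction put Col16a1 at -0.25 (edgeR adjusted p = 2.91e-06) and Col27a1 at -0.22 (0.000518), both called lower, whereas without it the libraries of Col16a1 overlapped (edgeR gave a log2 difference of -0.03 with SE 0.04 and adjusted p = 0.582). Col12a1 had 0.46 (SE 0.34, edgeR adjusted p = 0.314), and Col9a1 and Col9a2 were below the filter. Corrected for GC content and exon length, Col9a3 had 0.42 (edgeR adjusted p = 0.0695), Col17a1 0.30 (0.133) and Col15a1 0.27 (0.221). Without a batch term Col6a5, Col7a1, Col9a3, Col15a1 and Col17a1 did not pass in edgeR, and in DESeq2 and limma-voom Col6a5 and Col15a1 did not. Neither Col26a1 (0.07) nor Col28a1 (0.18), which fall outside these classes, passed the test.

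Levels were compared between genes as CPM per kilobase of exon, since a longer transcript gives more reads. The length merges the exons of all annotated transcripts of a gene and can exceed that of the transcript made, so the order depends on it. Before that division Col27a1 had the highest control mean (84.0 CPM), ahead of Col16a1 (62.3 CPM). In control cells the order per kilobase was Col16a1 (9.22 ± 0.561), Col11a2 (6.58 ± 0.608), Col27a1 (6.45 ± 1.03), Col6a3 (4.05 ± 0.462) and Col6a2 (3.80 ± 1.95; SD, n = 4). Col11a2 and Col27a1 differed by less than their spread, as did Col6a3 and Col6a2. After Klf4 Col11a2 stood at 9.32 ± 1.10 and Col16a1 at 9.02 ± 0.848 on the same scale, within each other's spread. The same 5 genes made up 69.4% of the summed collagen level per kilobase in controls and 64.2% after Klf4. Col5a1 moved from 0.123 to 1.18 CPM per kilobase, from rank 22 to rank 10 among the 44, and Col2a1 from 0.340 to 1.06, from rank 16 to rank 11. Col5a3 (0.398), Col23a1 (0.235), Col8a1 (0.150) and Col6a1 (0.144 CPM per kilobase) stayed below Col5a1 after Klf4. The genes with the largest fold changes thus lay below the 5 most abundant collagens in level.

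All collagens together took 0.0400%, 0.0371%, 0.0355% and 0.0368% of the counts in control replicates 1 to 4 and 0.0436%, 0.0454%, 0.0389% and 0.0430% in Klf4-transfected replicates 1 to 4. The ranges overlapped across batches, and within each batch both Klf4-transfected libraries were above both controls. Each Klf4-transfected library had a count in 42 of the 44 collagens, and the control libraries in 38 to 42.

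**Figure D3:**
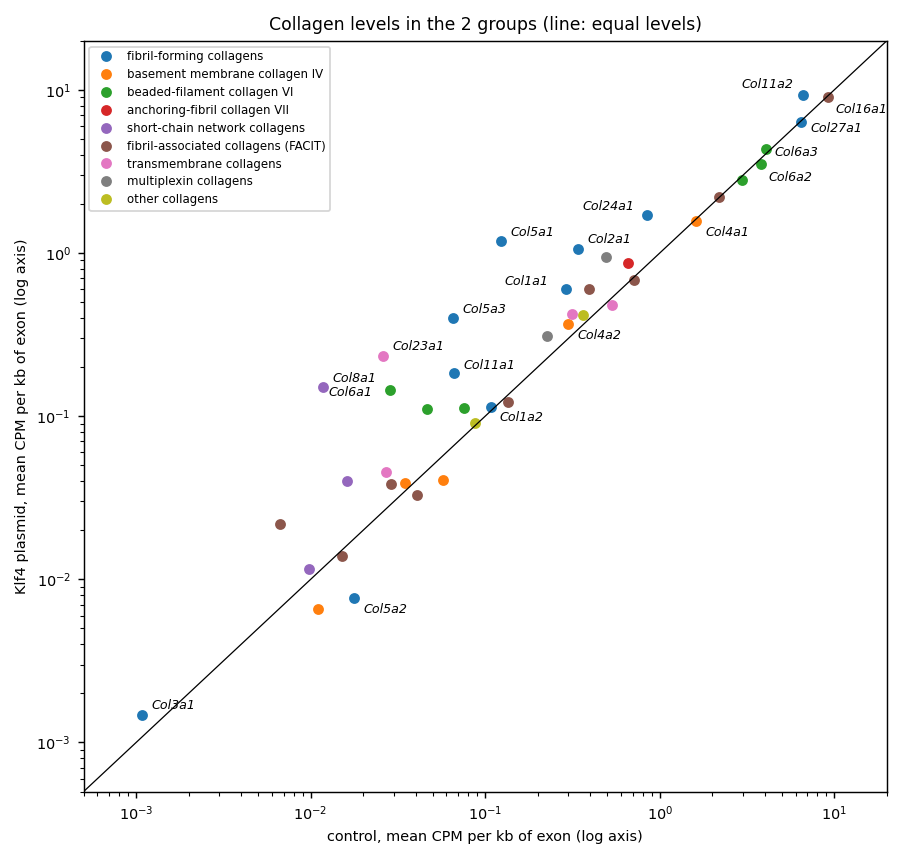
Mean level of each collagen gene in CPM per kilobase of exon, control on the x axis and Klf4 plasmid on the y axis, both on a log scale, with the line of equal level; genes at 0 in either group cannot be drawn. Col5a1, Col23a1 and Col8a1 lie farthest above the line, and Col16a1, Col27a1 and Col6a3 lie close to it at the upper end.

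Ratios between chains that share a molecule or a fibril were compared for 7 pairs, and in 5 the groups did not overlap. The size of each ratio depends on the merged exonic lengths, while its comparison between the groups does not. The exact test permutes all 8 libraries and takes no account of batch. The ratio of Col1a1 to Col1a2 per kilobase was 2.79, 3.69, 2.03 and 2.38 in controls and 5.29, 5.89, 5.22 and 4.78 after Klf4, without overlap. The mean ratio went from 2.72 ± 0.719 to 5.30 ± 0.456 (SD, n = 4; two-sided exact permutation test over 70 relabellings, p = 0.0286, the smallest this design allows; Benjamini-Hochberg adjusted p = 0.04 over 7 ratios). Col5a1 to Col5a2 went from between 6.02 and 9.04 in control libraries to between 62.8 and 707.2 after Klf4, the latter resting on 1 to 7 counts of Col5a2 per library, with the same exact permutation p.

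Col6a1 to Col6a3 went from 0.00714 ± 0.00302 to 0.0354 ± 0.0196, Col2a1 to Col11a2 from 0.0518 ± 0.0100 to 0.116 ± 0.0199, and Col11a1 to Col11a2 from 0.0100 ± 0.00484 to 0.0199 ± 0.000578 (SD, n = 4, each with an exact permutation p = 0.0286 and an adjusted p = 0.04). In every pair whose groups did not overlap, the first chain had already been called higher in these same libraries. Those ratios thus largely restate the calls of single genes and are no separate support for them. The pairs whose members had not passed the test gave no difference past the threshold. Col4a1 to Col4a2 was 5.56 ± 1.20 in controls and 4.41 ± 0.880 after Klf4 (SD, n = 4; exact permutation p = 0.171, adjusted 0.2). Col6a2 to Col6a3 was 0.462 and 0.493 in the control libraries of batch 1 and 1.52 and 1.46 in those of batch 2, and 0.407, 0.445, 1.22 and 1.39 after Klf4 (exact permutation p = 0.514). This ratio followed the batch, and within each batch both Klf4-transfected libraries were below both controls. Relabelling within batch leaves 36 arrangements, with a smallest two-sided exact permutation p of 0.0556, so no ratio can pass then. All but Col4a1 to Col4a2 (exact permutation p = 0.167) reached that smallest value, Col6a2 to Col6a3 included. With 1 library left out the smallest exact p is 0.0571, so no ratio can pass the test then.

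**Figure D4:**
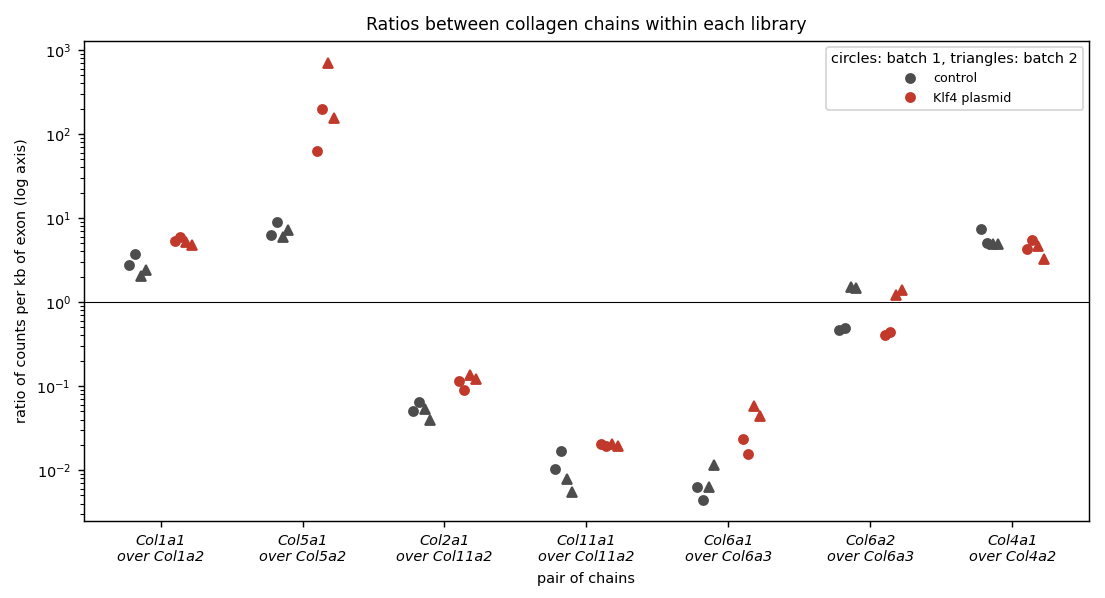
Ratio of the levels per kilobase of exon for 7 pairs of collagen chains in each library (y axis on a log scale), control and Klf4 plasmid side by side. The groups do not overlap for Col1a1 to Col1a2, Col5a1 to Col5a2, Col6a1 to Col6a3, Col2a1 to Col11a2 and Col11a1 to Col11a2, and the Col6a2 to Col6a3 ratio separates by batch.

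The effect of the plasmid on collagens was also compared between batches. The interaction term passed the threshold in 0 of 35 tested collagens in edgeR (0.766% of all tested genes) and in 0 with DESeq2. At an unadjusted p under 0.05 it was 6 collagens, Col2a1, Col5a1, Col11a1, Col24a1, Col27a1 and Col8a1, against 10.6% of all tested genes. For the 5 of these that rose the log2 fold change was the larger in batch 2, for example 1.36 and 1.96 for Col2a1 and 0.77 and 1.25 for Col24a1 in batches 1 and 2. Klf4 itself had 6.79 in batch 1 and 7.16 in batch 2. Leaving out control replicate 1 or Klf4-transfected replicate 4 brought Col27a1 past the threshold for the interaction (edgeR adjusted p = 0.026 and 0.029).

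Genes that modify, trim and cross-link collagen were taken from a list of 33, of which 29 were tested, 13 rose and 2 fell (15 of 29, where 36.6% of all tested genes changed), with a median log2 fold change of 0.08. Of the 29, 5 passed the filter only through the Klf4-transfected group, and these include the 3 with the largest log2 fold changes, Adamts3, Adamts14 and Lox, enzymes that act outside the cell. Adamts3, a protease that removes the amino-terminal propeptide of fibrillar procollagens, had 0, 0, 5 and 1 counts in controls and 224, 166, 306 and 332 after Klf4, a ratio of 163.7 after scaling to the totals (exact 95% interval 75.0 to 447.2, counting error only; edgeR gave a log2 difference of 7.24 and adjusted p = 5.65e-15). Adamts14, of the same protease family, had 1, 1, 0 and 0 counts and then 21, 12, 32 and 32 (ratio 46.3, interval 12.5 to 388.1; edgeR adjusted p = 6.57e-07). Lox, the lysyl oxidase that starts cross-links between collagen molecules, had 0, 0, 2 and 4 counts and then 44, 34, 55 and 96 (ratio 36.5, interval 16.5 to 100.4; edgeR adjusted p = 7.44e-09). All of these were near 0 in control cells, and in each the groups did not overlap. As the filter admitted them only because they were high after Klf4, the lack of overlap is no separate support.

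Enzymes and cofactors that act on collagen chains in the endoplasmic reticulum differed among themselves. P4hb (-0.05), Ppib (0.00), Plod3 (-0.00) and P4ha1 (0.06) did not pass the test, and Plod2 (-0.17) fell. Colgalt2 (1.00), Fkbp10 (0.67), P3h2 (0.53), P4ha2 (0.28), Plod1 (0.26) and Crtap (0.19) rose. Of these, Colgalt2 passed the filter only through the Klf4-transfected group, and 193 of the 2935 exonic bases of Fkbp10 overlap a gene of the opposite strand. The log2 fold change of Colgalt2 was 2.15 within batch 1 and 0.16 within batch 2, and its groups overlapped. Bmp1, which trims the carboxy-terminal propeptide, fell by 0.11 on the log2 scale, while Pcolce2, an enhancer of that step, rose from 16.1 ± 1.16 to 37.9 ± 3.03 CPM (SD, n = 4; edgeR gave a log2 difference of 1.23 and adjusted p = 8.46e-14). Serpinh1, the collagen-specific chaperone HSP47, was below the filter, at 0, 5, 2 and 4 counts in controls and 1, 4, 7 and 8 after Klf4. The genes of this paragraph were singled out after their values were seen.

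Of 11 collagen receptor genes, 10 were tested, 2 rose and 1 fell, or 3 of 10 where 36.6% of all tested genes changed. Of the 10, 2 (Itga11 and Lair1) passed the filter only through the Klf4-transfected group. Itga11, a collagen-binding integrin chain of mesenchymal cells, had 9, 12, 14 and 9 counts in controls and 18, 36, 41 and 28 after Klf4 (edgeR gave a log2 difference of 1.41 and adjusted p = 0.00248), without overlap. For Itga11, admitted only through the Klf4-transfected group, this is no separate support. Itga2, the corresponding chain of epithelia and platelets, was at 4.02 ± 0.36 CPM in controls and fell to 2.94 ± 0.193 CPM (SD, n = 4; edgeR gave a log2 difference of -0.45 and adjusted p = 0.00321). Adgrg1, a receptor that binds collagen III, rose by 0.08 on the log2 scale (edgeR adjusted p = 0.024), and its libraries overlapped.

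Proteins that anchor epithelia alongside collagens IV, VII and XVII were taken from a list of 14, of which 12 were tested, 8 rose and 1 (Fras1, -0.23) fell, with a median log2 fold change of 0.62, where 21.1% of all tested genes were higher and 15.5% lower. Of the 12, 3, Itgb4 and Nid1 among them, passed the filter only through the Klf4-transfected group. Itgb4, the integrin chain of the hemidesmosome, had 19, 8, 6 and 4 counts in controls and 486, 416, 613 and 575 after Klf4 (edgeR gave a log2 difference of 5.73 and adjusted p = 1.94e-16), and 537 of its exonic bases lie opposite a long noncoding RNA. Lamb3, a laminin chain of the epidermal basement membrane, had 26, 36, 22 and 24 counts and then 1088, 964, 1405 and 1341 (edgeR gave a log2 difference of 5.39 and adjusted p = 2.02e-20). Nid1, which links laminin to collagen IV, had 4, 1, 0 and 2 counts and then 70, 39, 106 and 94 (edgeR gave a log2 difference of 5.27 and adjusted p = 9.98e-10). The groups did not overlap in any of these, which were named as the largest changes of the list. For Itgb4 and Nid1, admitted only through the Klf4-transfected group, this is no separate support. Other members that rose had log2 fold changes down to 0.15 (Cd151) and 0.11 (Itga6), beside 0.48 for Col17a1 and 0.40 for Col7a1.

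**Figure D5:**
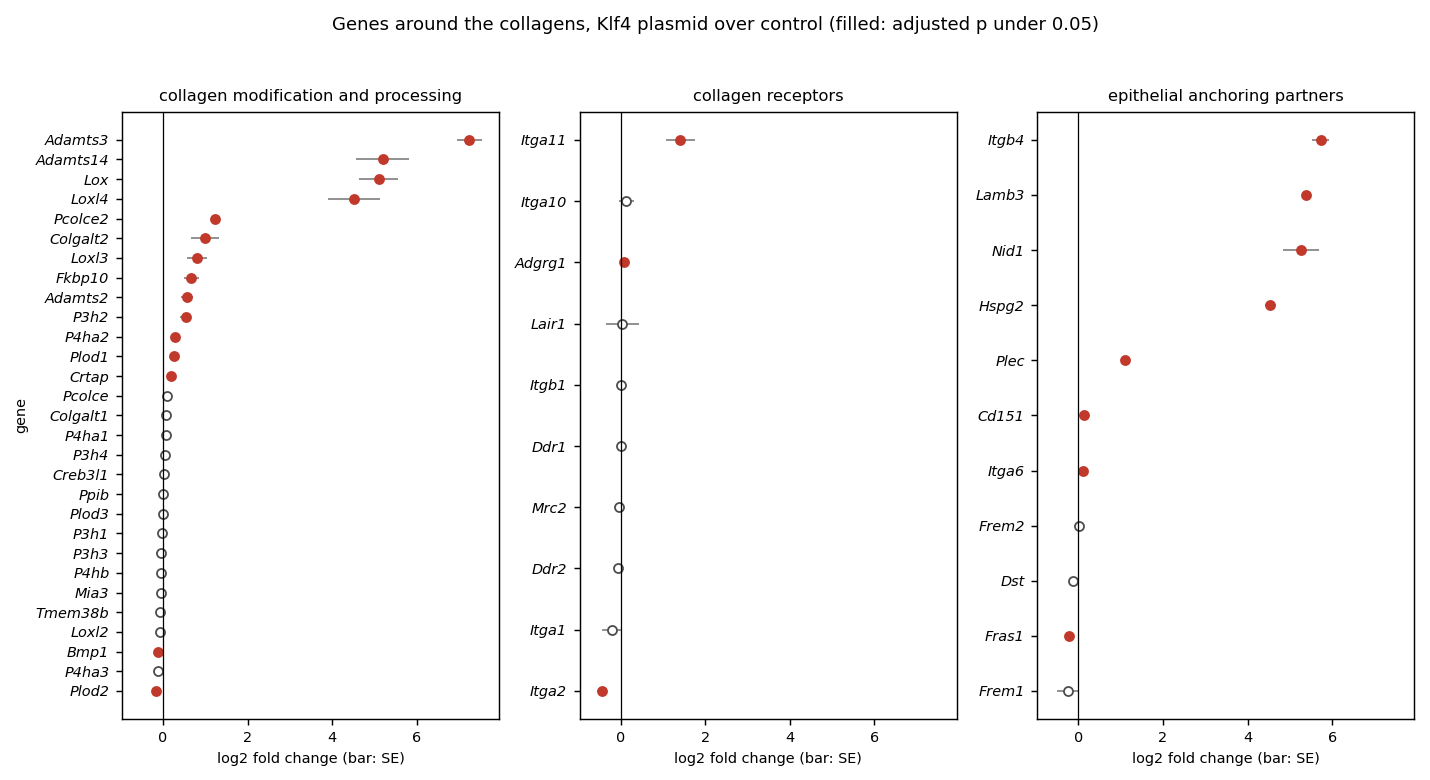
Log2 fold change (x axis, Klf4 plasmid over control, bars give the standard error) of tested genes that modify collagen, that act as collagen receptors or that anchor epithelia; filled points have an adjusted p under 0.05. Adamts3, Adamts14 and Lox stand far right in the first list, and Itgb4, Lamb3 and Nid1 in the last.

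Markers of other cell types moved with the collagens in part. Of 8 fibroblast and stellate cell markers, 3 were tested and rose, where 21.1% of all tested genes were higher. Of the 3, Dcn and Pdgfra passed the filter only through the Klf4-transfected group, so that their direction was fixed by it. Dcn, a proteoglycan that coats collagen fibrils, had 1, 3, 5 and 0 counts in controls and 735, 655, 1081 and 1124 after Klf4, Pdgfra had 0, 3, 0 and 2 and then 46, 36, 42 and 44, and Thy1 had 85, 63, 92 and 85 and then 139, 137, 202 and 173. The list summed to 1.62 to 2.01 CPM in control libraries and to 18.2 to 25.7 CPM after Klf4. Dcn made most of the latter, at 14.2 to 21.3 CPM, and the other 7 markers summed to 1.56 to 2.01 CPM in controls and to 3.89 to 5.02 CPM after Klf4. Lum had no count in any library, Acta2 a single count in 1 control library, Postn at most 4 and Fap at most 8 counts, and Pdgfrb had 0, 5, 0 and 2 counts in controls and 13, 3, 19 and 7 after Klf4. Endothelial markers summed to 4.14 to 4.48 CPM in controls and 5.04 to 5.32 CPM after Klf4, most of it Pecam1, at 3.82 to 4.15 and 4.10 to 4.64 CPM. Pecam1 (edgeR adjusted p = 0.351) and Tek (0.199) did not pass. Cdh5 rose, with 0 counts in each control and 14, 28, 19 and 19 after Klf4, and passed the filter only through that group. Kdr had at most 2, Emcn at most 3 and Vwf at most 8 counts. Macrophage markers summed to 5.86 to 6.37 and 5.70 to 7.25 CPM, and the 1 of them that was tested, Cd68, did not pass. The part of these markers in the collagen rises was not tested.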

How the data were processed

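Polyadenylated RNA of 8 MIN6 libraries was sequenced. The authors deposited raw read counts, whole numbers, with a column for each library and a row for each gene. The name of the deposited table, per the file headers, speaks of cutadapt, a read trimmer. The submitters' processing notes name FastQC, STAR, featureCounts, edgeR and the mm10 build, without versions or settings. The strand setting and the annotation are not given in the sources used here, so genes overlapping another gene are uncertain. All 55536 gene identifiers and symbols matched GENCODE M21 (GRCm38), which gave coordinates and exonic lengths.

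The deposited counts were analysed with edgeR 4.0.16 and limma 3.58.1 in R 4.3.3. The filter was filterByExpr at a minimum count of 10 (18266 genes tested, 37270 removed), and libraries were scaled with TMM factors of 0.996 to 1.01. The quasi-likelihood test used terms for batch and plasmid, and p-values were Benjamini-Hochberg adjusted over all tested genes at a threshold of 0.05. Log2 fold changes are Klf4 plasmid over control. CPM per library is the count over the TMM-scaled library total and, per kilobase, divided by the exonic length, merged over all annotated transcripts of the gene. Chain ratios were compared with exact permutation tests in Python 3.11.15 with scipy 1.17.1, and figures drawn with matplotlib 3.10.9.

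The members and lists were chosen with earlier results of these data known. Collagens called at a log2 fold change of at least 1, the 5 highest in control level per kilobase and the 3 called with the lowest log2 fold change were given per library. From each other list the 3 called genes of largest change were named, and the result of 1 listed gene is not reported here. In the model with a batch term, edgeR p-values set an effect against the spread left between these libraries after that term. The difference between batches is not part of that spread. Intervals and the floor of 3 counts cover counting error only. Replicate numbers are shared between groups. Deviations from the group means correlated at 0.614, 0.459, 0.57 and 0.516 for numbers 1 to 4 over 10485 genes. Other numbers of the same batch gave 0.528 on average, so these values show no clear pairing by number beyond the batch. The mean between batches was -0.534, which largely follows from centring each group on its own mean. Alternatives were other designs, scalings, filters and tools (DESeq2 1.42.0), single batches and the omission of each library. The GC and length offset (loess span 0.3) and the alternatives of the ratios were chosen after seeing the data. Counts of 18266 genes were simulated with the real means, without a batch difference and with far fewer genes changed than the 6684 called here. On these the test recovered 68.8% of genes changed by 0.5, 87.4% of those changed by 1 and 100% of those changed by 2 on the log2 scale. Of its calls 6.75% were false. The rates for the real libraries, which differ by batch, were not measured.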

Additional observations from a re-analysis of the deposited data

Results flagged for a closer look

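The total count of Klf4-transfected replicate 2, 45417853, lay far below the other totals of its group, which ran from 51891997 to 52731176. It was the only one of 46 checks for a library standing apart from its group of 4 that passed, where chance gives about 2.3. The collagen counts called without this library are in the range given for the omission of each library.

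The plasmid effect differed between batches for Klf4 and 3 genes of the other lists in edgeR's interaction test, adjusted over all tested genes. It was larger in batch 2 by 0.371 on the log2 scale for Klf4, by 1.21 for Hspg2 (perlecan, a heparan sulphate proteoglycan of basement membranes) and by 0.505 for Plec (plectin, a linker of the hemidesmosome). For Mafa, a transcription factor of mature β-cells, the difference of batch 2 minus batch 1 was -0.25. No tested collagen passed that test.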

How the results depend on the processing

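Collagen genes called changed numbered 12 without a batch term, 14 to 16 with 1 library left out, and 15 with a replicate block replacing batch (Col15a1 and Col6a5 lost), against 17. Over all genes the block gave 6284 calls against 6684, and no batch term 4116. The 10 collagens with a log2 fold change of at least 1 kept their call in every alternative that tested them. Col6a1, Col6a4, Col8a1 and Col23a1 were not tested with the filter at 1 CPM. Collagens called lower numbered 0, but 1 in batch 2 alone, 0 to 1 with a library left out, and 5 (Col16a1, Col27a1, Col4a1, Col6a2 and Col6a6) with the GC and length offset, with and without the replicate block. That offset called 13 collagens higher. Modification genes changed numbered 8 without a batch term, and receptor genes 1 in batch 1 alone and 5 with the offset, with or without the block. Interaction calls among collagens were 0 to 1 with a library left out. Log2 fold changes near 0 changed sign: Col16a1 was 0.0015 with factors from abundant genes and 0.0037 in batch 1 alone, Col27a1 0.0031 and 0.073 there and -0.095 to 0.014 with a library left out, and Col6a3 -0.028 with the offset, with or without the block. The log2 change of the Col6a2 to Col6a3 ratio ran from -0.48 to 0.11 with a library left out. Relabelling within batch, none of the 7 ratios could pass. The cause was not tested. Low control counts limit Col5a2, Col6a1, Col8a1 and Col23a1.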
